A study of Mus musculus with 6 samples.

Results

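The mitosis and spindle genes described here are 45 mouse genes whose products build the mitotic spindle, attach chromosomes to it, time their separation or divide the cell. They were found on the arrays through the RefSeq transcript that each probe names, which gave 62 probes for the 45 genes, out of 20284 genes and 26762 probes with a gene symbol among 55681 probes. C57BL/6 is an inbred laboratory strain, and RNA from whole kidneys of its males, with no transgene or treatment in the labels, was compared between 3 young samples (2 months) and 3 aged samples (20 months). Each sample was labelled with Cy3 and hybridised to its own array, and all 6 arrays lay on 1 slide, the young samples in slide row 1 and the aged samples in slide row 2, so that age and slide row cannot be told apart. The labels name independent RNA preparations without saying whether each came from a separate mouse, and p-values therefore reflect only how these 6 samples vary, part of which may be technical.

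In a dividing cell, the kinase Cdk1 with its cyclin partners starts mitosis, the spindle checkpoint holds the cell until every chromosome is attached, and the anaphase-promoting complex then marks cyclin B and securin for destruction so that sister chromatids part and the cell divides. Transcripts of most of these genes build up late in the cell cycle and are scarce in resting cells. The adult kidney is a tissue with few dividing cells, and its tubules are known to take up division again after injury.

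Levels are log2 processed signal relative to the 75th percentile of the same array, so that 0 is that percentile, and changes are aged minus young on that log2 scale with the moderated standard error (SE). A gene was tested where every array of an age, young or aged, showed its probe well above background, which held for 40 of the 45 genes, beside 71.7% of all genes on the array. In aged kidney 21 of these 40 were lower and 0 higher at an adjusted p under 0.05 (limma with Benjamini-Hochberg adjustment over 14548 genes), where the share of all tested genes called lower was 1.4% and the share called higher was 1.98%. The 21 falls ran from 1.63-fold to 2.77-fold, and 10 of them were at least 2-fold, a size that 0.474% of all tested genes reached with a call. For 7 of the 21 (Ccnb1, Plk1, Melk, Bub1, Cdca5, Nuf2 and Top2a, which include 5 of the 10 at least 2-fold) 1 or 2 of the 3 aged arrays were not well above background, so their folds rest partly on signal at background and give no firm order of size. In whole-tissue RNA, fewer cells of a dividing type and less RNA per cell cannot be told apart.

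Over all 45 genes, tested or not, the difference of the means was below 0 for 43, the exceptions being Cdc25c and Cenpf, whose probes were not well above background on any array. All 3 aged arrays lay below all 3 young arrays for 32 of the 45 genes. Among the 40 tested genes this held for 31, beside 11.5% of all tested genes, and the change was below 0 for 40 (39 with normexp background correction, the exception being Cenpe), beside 52.8% of all tested genes. The median difference was -0.89 over the 45 genes and 0.04 over all genes with a probe. Because a dim gene that is detected on the young arrays alone can pass the detection filter only through its higher age, the 24 genes that were above background on all arrays of both ages were also counted by themselves. Of these 24, 14 were called lower and 17 had groups that did not overlap, where among all genes detected on all 6 arrays 1.12% were called lower and 10.5% did not overlap in this direction. The other 16 tested genes passed through the young arrays alone, as 9.45% of all tested genes did, and 7 of them were called, beside 4% of all genes that passed in this way; 0 passed through the aged arrays alone, beside 0.378% of all tested genes.

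**Figure D1:**
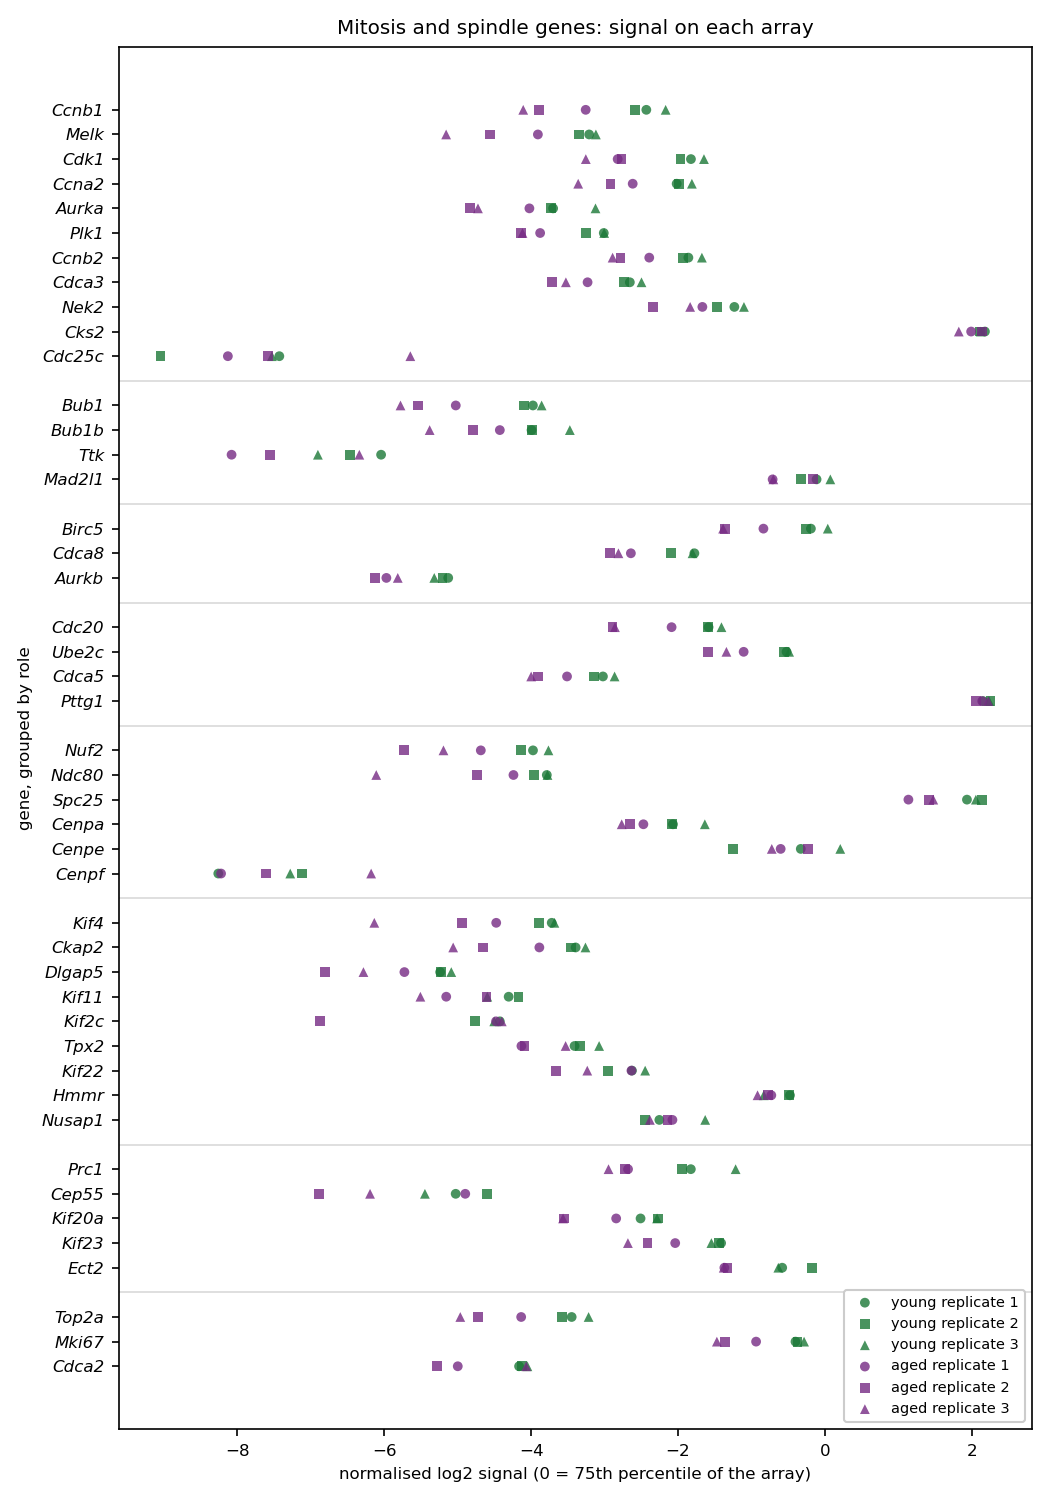
Normalised log2 signal (horizontal axis, 0 is the 75th percentile of the array) of each of the 45 mitosis and spindle genes, grouped by role, with 1 point per array, green for the 3 young and purple for the 3 aged arrays and 1 marker shape per replicate number. For 32 of the 45 genes the purple points all lie to the left of the green ones.

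The arrays did not contribute equally. Young replicate 3 gave the highest value of 30 of the 45 genes, and aged replicates 3 and 2 gave the lowest value of 22 and 15 genes, whereas aged replicate 1 was lowest for 4. The median level of the 45 genes was -2.63, -2.73 and -2.45 on young replicates 1, 2 and 3 and -3.23, -3.71 and -3.53 on aged replicates 1, 2 and 3, so these medians did not overlap between ages. Slide columns 1, 2 and 3 each held 1 young and 1 aged array, and 42, 40 and 41 of the 45 genes were lower in the aged array of the column, with median differences of -0.58, -0.91 and -1.11. Of all tested genes, 56.3%, 52.4% and 48% were lower in these columns, with medians of -0.03, -0.02 and 0.02. With the slide column as a block in the fit, 7 of the 21 calls were kept, those of Cdk1, Plk1, Bub1, Cdca8, Nuf2, Kif23 and Ect2, and 0.701% of all tested genes were called lower. Leaving out 1 array at a time moved the count of calls, which was 3, 8 and 5 without young replicates 1, 2 and 3 and 27, 1 and 6 without aged replicates 1, 2 and 3. The share of all tested genes called lower in the same fits moved too, to 0.323%, 0.619% and 0.426% and to 3.97%, 0.247% and 0.516%. Cdk1 alone was called in all 6 of these fits, narrowly, with an adjusted p up to 0.0496 (limma). Bub1 and Plk1 were called in all but the fit without aged replicate 2 (adjusted p = 0.0555 and 0.0521, limma). Prc1 and Ect2 lost their call in 3 of the fits and the other 16 genes in 4 or 5, with adjusted p up to 0.168 (limma), and the median change stayed between -1.05 and -0.84. When all 20284 genes were tested with no detection filter, 0 of the 45 genes and 16 of all genes passed the threshold (limma), while 31 of the 45 and 11.2% of all genes had an unadjusted p under 0.05.

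Detection differed between the ages as well. The share of probes well above background was 72.8%, 68.9% and 55.2% for young replicates 1, 2 and 3 and 62.8%, 55.6% and 46.2% for aged replicates 1, 2 and 3, and the mitosis and spindle genes above background numbered 43, 43 and 40 in young and 41, 35 and 24 in aged samples. The median level of the negative control spots was higher on the aged arrays (-8.12, -7.52 and -6.21) than on the young ones in the same columns (-9.27, -8.96 and -7.44). Most of the genes are dim: 32 of the 40 tested ones lie among the dimmest of 3 equal groups of genes by signal, where 2.91% of genes were called lower, and 18 of these 32 were called. In the middle group 2 of 5 were called, beside 1.01% of all genes there, and in the brightest 1 of 3, beside 0.268%. The part of detection in the falls was not tested.

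**Figure D2:**
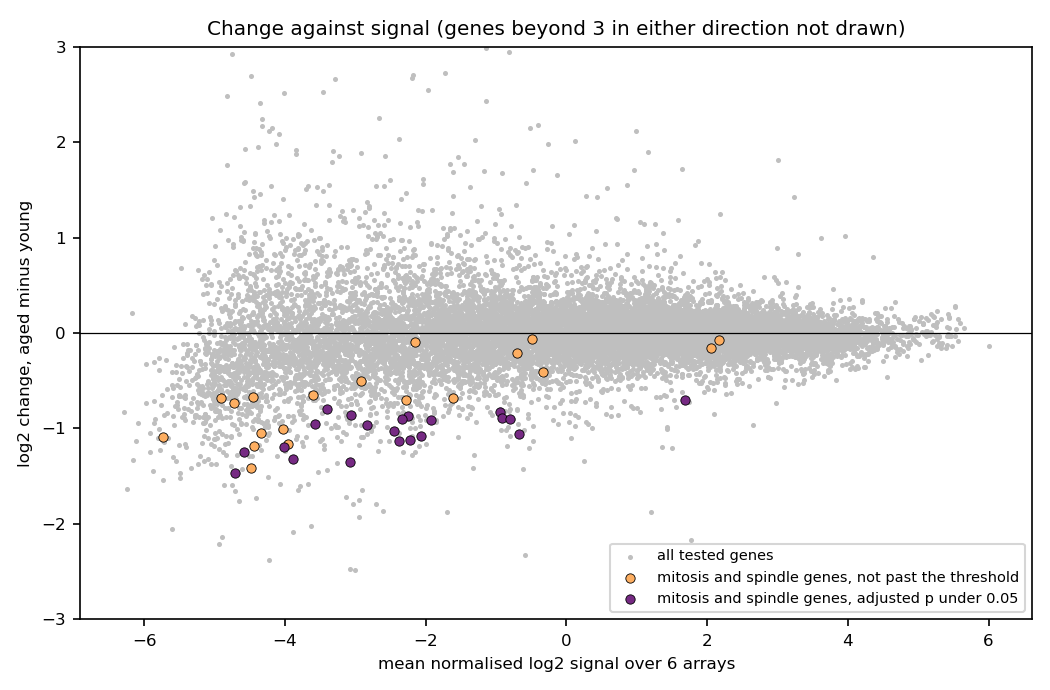
Change between ages (vertical axis, log2, aged minus young) against mean normalised log2 signal over 6 arrays (horizontal axis) for all tested genes (grey) and for the mitosis and spindle genes past the threshold (purple) or not (orange); 18 genes beyond the axis are not drawn. All 40 tested mitosis and spindle genes lie below the line at 0, most of them at low signal.

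Many promoters of genes expressed late in the cell cycle carry a cell cycle genes homology region (CHR), a short element bound by the MuvB core of the DREAM complex, which represses them in resting cells, together with CCAAT boxes bound by the activator NF-Y. Promoter windows of 300 bases (250 before and 50 after the annotated start, RefSeq, build GRCm38.p6) were found for 38 of the 45 genes and searched on both strands for the CHR letters TTTGAA or TTCGAA, for CCAAT and for the E2F letters TTCCCGCC or TTTCCCGC. The windows of Cdk1 (chr10:69352863-69353162, minus strand), Ccnb2 (chr9:70421505-70421804, minus strand), Bub1 (chr2:127831810-127832109, minus strand) and Plk1 (chr7:122159185-122159484, plus strand) are shown as examples from the 19 called genes with a window. All 4 hold both CHR and CCAAT letters, which 14 of the 19 do, so they do not stand for every called gene. Each is written 5′ to 3′ along the gene, with the CHR and CCAAT matches (ATTGG where CCAAT is on the other strand) in capitals.
Cdk1: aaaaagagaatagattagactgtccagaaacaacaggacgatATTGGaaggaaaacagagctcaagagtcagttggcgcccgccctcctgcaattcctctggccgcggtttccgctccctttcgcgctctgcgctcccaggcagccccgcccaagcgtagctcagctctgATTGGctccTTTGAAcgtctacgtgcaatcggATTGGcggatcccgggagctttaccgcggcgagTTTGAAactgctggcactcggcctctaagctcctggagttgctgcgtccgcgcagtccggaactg
Ccnb2: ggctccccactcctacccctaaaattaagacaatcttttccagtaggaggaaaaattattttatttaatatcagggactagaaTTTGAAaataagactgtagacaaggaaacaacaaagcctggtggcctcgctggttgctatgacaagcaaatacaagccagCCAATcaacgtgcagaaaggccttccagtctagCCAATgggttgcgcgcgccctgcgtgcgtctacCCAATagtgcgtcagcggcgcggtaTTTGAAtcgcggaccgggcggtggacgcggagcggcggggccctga
Bub1: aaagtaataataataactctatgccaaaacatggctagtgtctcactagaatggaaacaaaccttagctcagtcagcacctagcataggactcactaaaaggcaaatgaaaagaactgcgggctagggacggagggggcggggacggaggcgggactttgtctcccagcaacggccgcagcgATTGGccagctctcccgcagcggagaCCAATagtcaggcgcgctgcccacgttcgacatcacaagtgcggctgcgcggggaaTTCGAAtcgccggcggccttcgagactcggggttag
Plk1: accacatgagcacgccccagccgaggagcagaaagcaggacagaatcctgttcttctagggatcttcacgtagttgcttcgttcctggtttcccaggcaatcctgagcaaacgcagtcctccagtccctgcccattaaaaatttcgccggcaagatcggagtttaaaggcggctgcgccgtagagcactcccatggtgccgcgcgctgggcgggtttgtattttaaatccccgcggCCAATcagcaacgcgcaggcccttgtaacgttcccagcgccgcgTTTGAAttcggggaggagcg

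Positions are counted from the annotated start as base 1, with bases before it negative. In the Cdk1 window the CHR letters begin at -71 and -15, and the CCAAT matches at -208, -80 and -48. Ccnb2 has CHR letters from -167 and from 5, and between them a row of 3 CCAAT matches from -87, -54 and -21. Bub1 has a single CHR match from 15 and CCAAT matches from -68 and -42. Plk1 has 1 CHR match from 31 and 1 CCAAT match from -14.

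The windows of 2 genes that were not called, Cks2 (chr13:51644982-51645281, plus strand) and Pttg1 (chr11:43425932-43426231, minus strand) are shown as well, chosen after their values were seen. Cks2 holds 4 CCAAT matches, in capitals, and no CHR letters, and Pttg1 holds no match to any of the letters searched. Among the 19 genes with a window that were not called or not tested, 13 do hold CHR letters. These 2 windows therefore do not stand for the genes that were not called.
Cks2: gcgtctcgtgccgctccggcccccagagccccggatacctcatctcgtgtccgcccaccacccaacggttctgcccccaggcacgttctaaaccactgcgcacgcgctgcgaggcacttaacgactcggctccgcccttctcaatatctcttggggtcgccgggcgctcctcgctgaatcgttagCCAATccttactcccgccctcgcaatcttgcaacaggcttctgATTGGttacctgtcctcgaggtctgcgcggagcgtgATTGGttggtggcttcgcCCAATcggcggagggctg
Pttg1: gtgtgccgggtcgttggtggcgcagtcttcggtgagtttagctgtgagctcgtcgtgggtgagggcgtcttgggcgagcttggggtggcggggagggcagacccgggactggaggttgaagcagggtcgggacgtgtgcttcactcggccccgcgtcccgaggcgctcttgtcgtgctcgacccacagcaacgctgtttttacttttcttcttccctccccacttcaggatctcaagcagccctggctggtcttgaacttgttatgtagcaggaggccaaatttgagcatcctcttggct

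CHR letters were present in 28 of the 38 windows (73.7%), beside 19.4% of all 27025 windows in the table and 14.3% of those of the tested genes. CHR letters beginning within 50 bases of the start were present in 25 windows (65.8%), beside 5.29% of all windows. CCAAT was also present in 28 (73.7%), beside 37.9%, and both elements together in 24 (63.2%), beside 7.7%. The E2F letters were in 0 of the 38 windows and in 2.81% of all windows. Among the 19 called genes with a window, 15 held CHR letters, and among the 19 that were not called or not tested, 13 did. The called genes Ccnb1, Birc5, Melk and Nuf2 held none, and of these Ccnb1 alone held CCAAT. Neighbouring CHR and CCAAT matches can share a base, and a match is a run of letters, not a measured site.

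**Figure D3:**
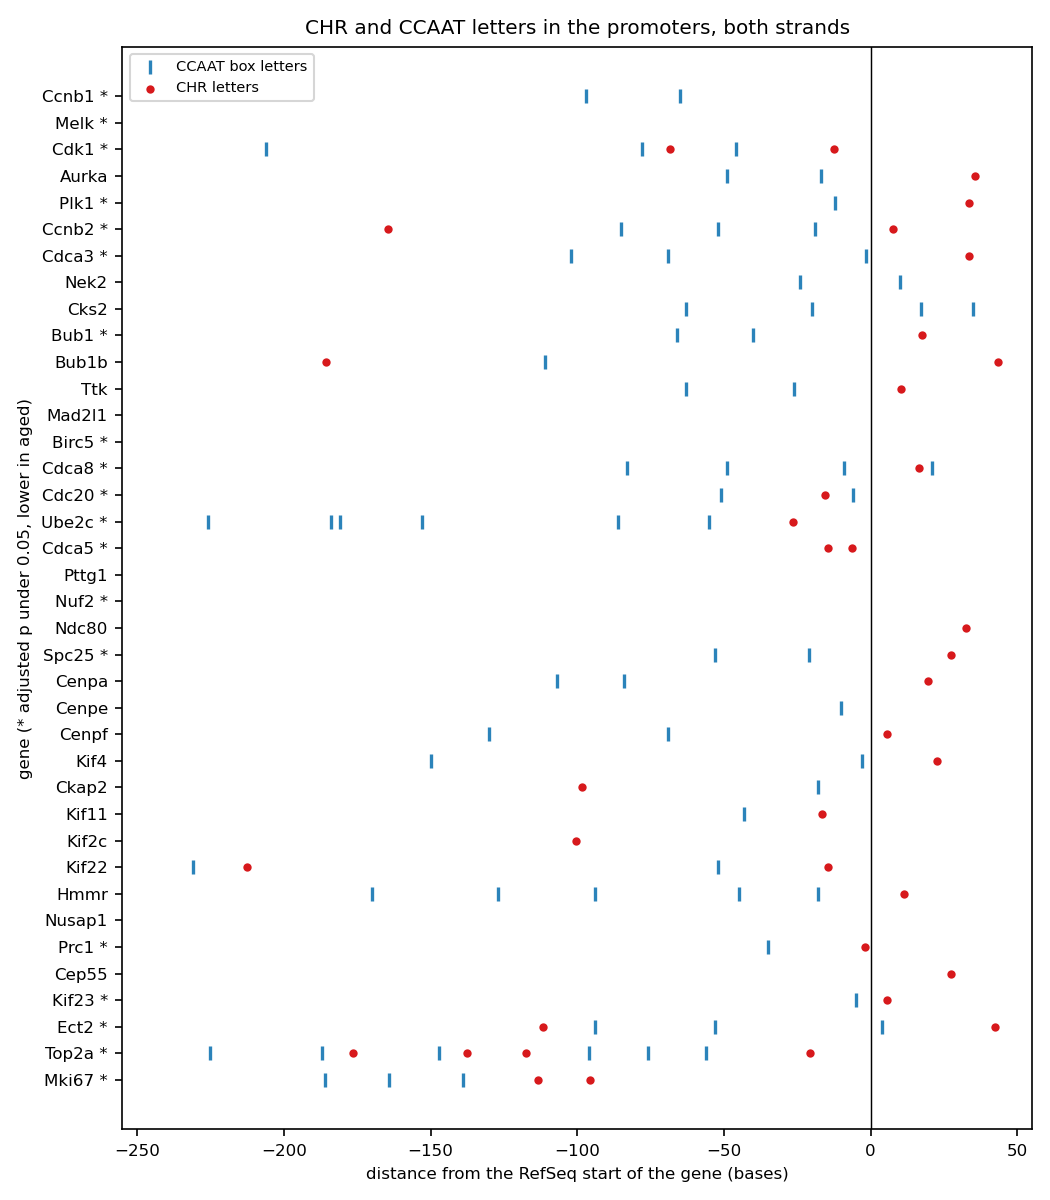
Positions of CHR letters (red points) and CCAAT letters (blue ticks) on either strand in the promoter windows of 38 mitosis and spindle genes (rows; an asterisk marks a gene called lower in aged kidney), against distance in bases from the RefSeq start (vertical line). In 25 of the 38 rows a red point lies within 50 bases of the start.

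The kinases and cyclins that bring cells into mitosis are the largest role and held the most calls, with 7 of 10 tested genes lower in aged kidney. The share called was higher for cytokinesis (4 of 4), the chromosomal passenger complex (2 of 2) and anaphase and cohesion (3 of 4). These shares rest on few genes and give no firm order of roles. The median change of tested genes was -0.98 for the kinases and cyclins. It was -0.94 for cytokinesis, -0.98 for the passenger complex and -0.81 for anaphase and cohesion. Cdk1, the kinase that drives entry, read -1.82, -1.97 and -1.65 on young replicates 1, 2 and 3 and -2.82, -2.77 and -3.26 on aged replicates 1, 2 and 3. The highest aged array was thus well under the lowest young one, and the fall was 2.20-fold (change -1.14 ± 0.16, adjusted p = 0.0125, limma). Ccnb1, which encodes cyclin B1, the partner that activates Cdk1, read -2.43, -2.59 and -2.17 in young and -3.26, -3.89 and -4.11 in aged samples, in replicate order. The groups were apart and the fall was 2.56-fold (change -1.35 ± 0.22, adjusted p = 0.0226), though only 2 of the 3 aged arrays were well above background. Ccnb2, the second B-type cyclin, was tighter among the young arrays (-1.86, -1.94 and -1.68) and lower on each aged array (-2.39, -2.78 and -2.89), a fall of 1.82-fold (change -0.87 ± 0.15, adjusted p = 0.0283). Ccna2, cyclin A2, which acts from DNA replication into early mitosis, read -2.02, -1.99 and -1.81 in young and -2.62, -2.92 and -3.36 in aged kidney. Its groups did not overlap and its fall was 2.03-fold (change -1.02 ± 0.19, adjusted p = 0.0311).

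Plk1, the polo-like kinase that matures centrosomes and acts throughout mitosis, read -3.01, -3.25 and -3.01 in young and -3.88, -4.14 and -4.12 in aged kidney. The 3 aged values lay close together and below every young value (change -0.96 ± 0.13, adjusted p = 0.0111), with 2 of 3 aged arrays above background. Melk, a kinase found in dividing cells, spread more widely in aged kidney, with -3.91, -4.56 and -5.16 against -3.21, -3.35 and -3.12 in young (change -1.32 ± 0.28, adjusted p = 0.0491, the closest to the threshold of the 21 calls), and 2 of its 3 aged arrays were above background. Cdca3, an adaptor that promotes destruction of the mitotic inhibitor Wee1, read -2.66, -2.73 and -2.50 in young and -3.23, -3.71 and -3.53 in aged kidney, with no overlap (change -0.86 ± 0.15, adjusted p = 0.0243). Aurka, the centrosomal Aurora kinase, missed the threshold although its groups were apart: it read -3.70, -3.73 and -3.12 in young and -4.02, -4.83 and -4.72 in aged samples (change -1.01 ± 0.25, adjusted p = 0.0793). Nek2, a kinase that separates centrosomes, also had groups that did not overlap (-1.23, -1.47 and -1.10 against -1.67, -2.35 and -1.84) and a change of -0.68 ± 0.19 (adjusted p = 0.117). Cks2, the small Cdk-binding subunit whose window is printed above, overlapped between ages, with 2.18, 2.10 and 2.12 in young and 1.99, 2.13 and 1.82 in aged kidney (change -0.15 ± 0.12, adjusted p = 0.559). Cdc25c, the phosphatase that activates Cdk1, was not above background on any array and was not tested.

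**Figure D4:**
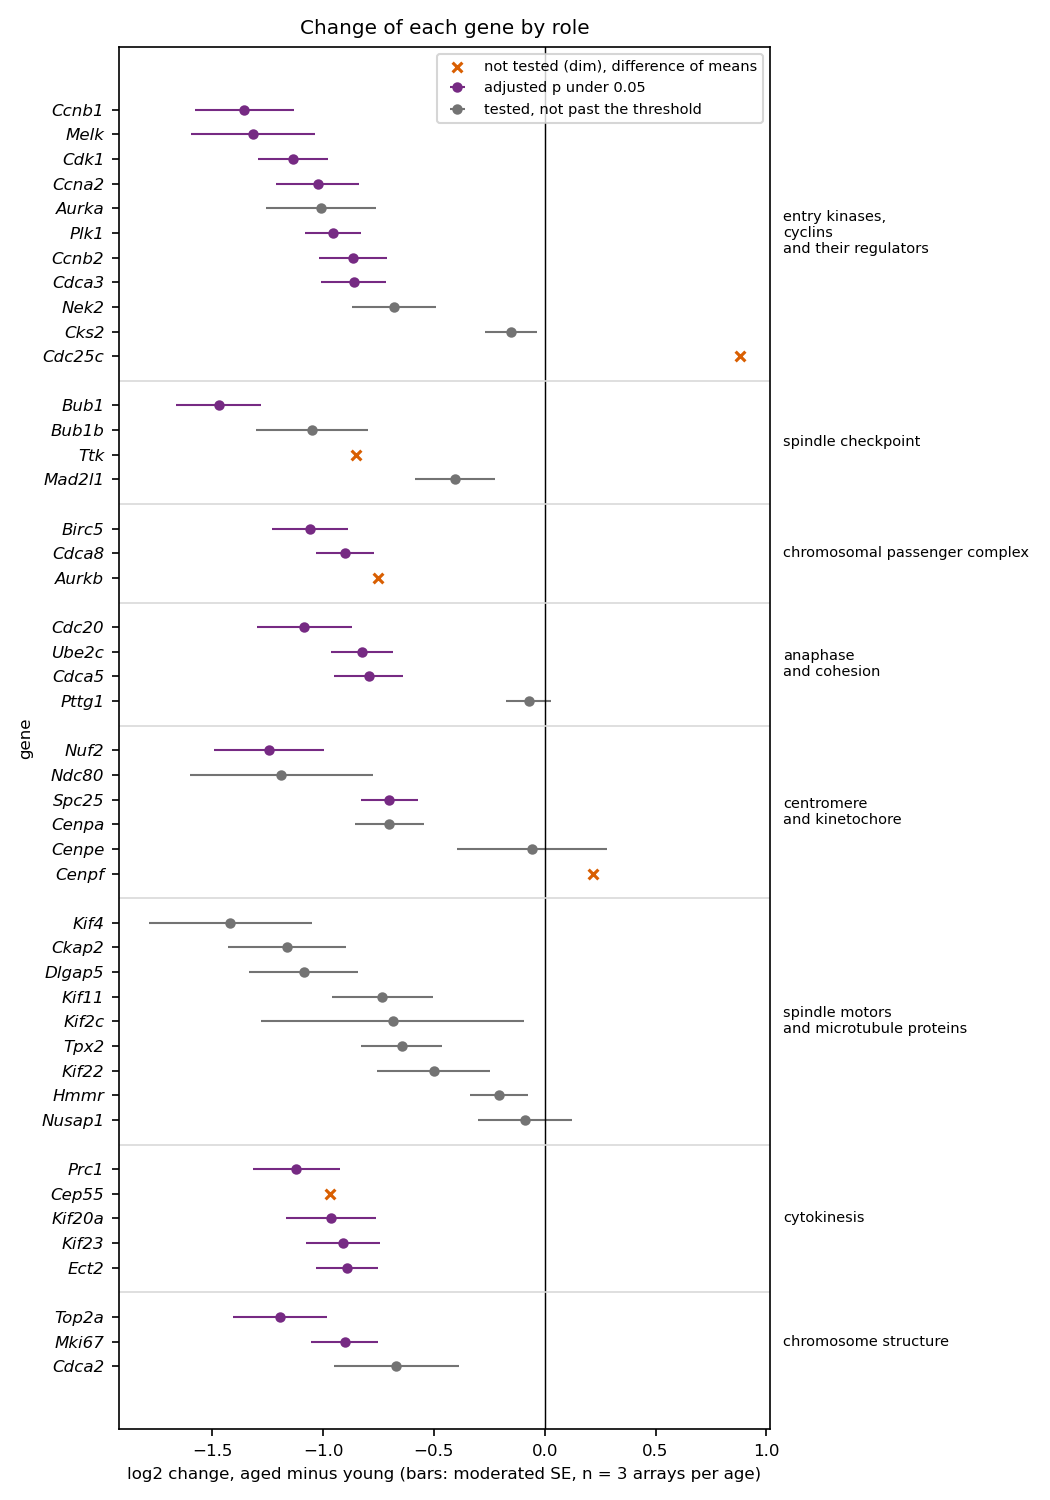
Log2 change (aged minus young, horizontal axis) of each mitosis and spindle gene, grouped by role, with bars for the moderated SE (n = 3 arrays per age); purple points passed an adjusted p of 0.05, grey points did not, and orange crosses are differences of means for the 5 genes too dim to test. The spindle motors and microtubule proteins hold 0 purple points among 9, and the cytokinesis genes 4 among 4 tested.

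Of the 3 tested spindle checkpoint genes, 1 passed. Bub1, the kinase that recruits checkpoint proteins to unattached kinetochores, had the largest fitted fall of the 21 calls, from -3.98, -4.10 and -3.86 in young to -5.03, -5.54 and -5.78 in aged kidney. The gap between the groups was wider than the range within either of them, and the fall was 2.77-fold (change -1.47 ± 0.19, adjusted p = 0.0107), with 1 of 3 aged arrays above background. Bub1b, which encodes BubR1, a part of the complex that inhibits the anaphase-promoting complex, read -3.99, -3.99 and -3.47 in young and -4.43, -4.79 and -5.38 in aged samples. These groups did not overlap either, and the change of -1.05 ± 0.25 missed the threshold (adjusted p = 0.0737). Mad2l1, which encodes Mad2 of the same complex, overlapped between ages because aged replicate 2 (-0.17) lay among the young values (-0.12, -0.33 and 0.07), while the other aged arrays read -0.71 and -0.70 (change -0.40 ± 0.18, adjusted p = 0.306). Ttk, the kinase at the head of the checkpoint, was above background on 2 young arrays and on 0 aged arrays and was not tested.

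Both tested genes of the chromosomal passenger complex, which corrects wrong attachments and later marks the division plane, were lower. Birc5, survivin, read -0.19, -0.26 and 0.04 in young and -0.84, -1.36 and -1.39 in aged kidney, and was above background on all 6 arrays. Its lowest young value exceeded its highest aged value, and the fall was 2.08-fold (change -1.06 ± 0.17, adjusted p = 0.0217). Cdca8, borealin, read -1.78, -2.09 and -1.80 in young and -2.64, -2.92 and -2.81 in aged samples (change -0.90 ± 0.13, adjusted p = 0.0147). Aurkb, the kinase of the complex, was too dim to test, with 2 young arrays and 0 aged arrays above background. It read -5.13, -5.21 and -5.32 against -5.97, -6.12 and -5.81, so the aged arrays were the lower ones here too.

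Among the genes of anaphase and cohesion 3 of 4 were lower. Cdc20, the activator that directs the anaphase-promoting complex to its targets, read -1.58, -1.59 and -1.41 in young and -2.09, -2.89 and -2.86 in aged kidney. Aged replicate 1 lay nearest the young arrays, still below them, and the fall was 2.12-fold (change -1.08 ± 0.21, adjusted p = 0.0401). Ube2c, the ubiquitin-conjugating enzyme of that complex, was nearly constant in young kidney (-0.52, -0.56 and -0.49) and read -1.11, -1.59 and -1.34 in aged kidney (change -0.82 ± 0.14, adjusted p = 0.0240). Cdca5, sororin, which keeps sister chromatids joined, read -3.02, -3.15 and -2.86 against -3.51, -3.90 and -4.00, with no overlap and 2 of 3 aged arrays above background (change -0.79 ± 0.15, adjusted p = 0.0377). Pttg1, securin, which holds separase inactive until anaphase, overlapped between ages: it read 2.15, 2.25 and 2.23 in young and 2.14, 2.05 and 2.22 in aged kidney (change -0.07 ± 0.10, adjusted p = 0.777).

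At the centromere and kinetochore, where spindle fibres grip the chromosome, 2 of 5 tested genes were lower, both from the Ndc80 complex that binds microtubules. Nuf2 read -3.97, -4.14 and -3.76 in young and -4.68, -5.73 and -5.19 in aged samples. The aged arrays were all lower and more spread, with 1 of 3 above background (change -1.24 ± 0.25, adjusted p = 0.0412). Spc25 read 1.93, 2.14 and 2.05 in young and 1.13, 1.41 and 1.47 in aged kidney, a fall of 1.63-fold on arrays that were all above background (change -0.70 ± 0.13, adjusted p = 0.0308). Ndc80 itself, the namesake of that complex, read -3.79, -3.96 and -3.78 in young and -4.24, -4.74 and -6.11 in aged samples. Its groups were apart, 1 aged array was not above background, aged replicate 3 was far below the other aged arrays, and the change of -1.19 ± 0.41 did not pass (adjusted p = 0.195). Cenpa, the histone H3 variant that marks centromeres, read -2.07, -2.08 and -1.64 against -2.47, -2.65 and -2.77, also without overlap (change -0.70 ± 0.15, adjusted p = 0.0552). Cenpe, a kinetochore motor, overlapped between ages (change -0.06 ± 0.34, adjusted p = 0.951), and Cenpf was not above background on any array.

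None of the 9 spindle motors and microtubule proteins passed the threshold (limma), although 5 had an unadjusted p under 0.05, beside 17.1% of all tested genes, and the same number had groups that did not overlap. Dlgap5, which stabilises spindle fibres near chromosomes, had the smallest p of them. It read -5.24, -5.23 and -5.09 in young and -5.72, -6.81 and -6.28 in aged kidney, where 1 of 3 arrays was above background (change -1.09 ± 0.25, adjusted p = 0.0608). Ckap2, a microtubule-binding protein of the spindle poles, read -3.39, -3.46 and -3.26 against -3.89, -4.65 and -5.06 (change -1.16 ± 0.27, adjusted p = 0.0640). In both genes the young arrays lay close together and the aged arrays spread downward. With other settings of the analysis, Ckap2 passed the threshold in 5 of 16 and Dlgap5 in 3 of 16 (limma).

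Kif4, a chromosome-bound motor, had the largest change among genes that were not called (-1.42 ± 0.37, adjusted p = 0.0940), and its aged arrays ran from -4.47 to -6.13, with 2 of 3 above background. The groups were apart as well for Tpx2, which nucleates spindle microtubules (change -0.65 ± 0.18, adjusted p = 0.120), and for Kif11, the motor that pushes spindle poles apart (change -0.73 ± 0.23, adjusted p = 0.153). The other 4 overlapped. Kif22, a motor that moves chromosome arms, changed by -0.50 ± 0.26 (adjusted p = 0.370). Kif2c, a kinesin that shortens microtubules, rested on 1 array, since aged replicate 2 read -6.87 and aged replicates 1 and 3 read -4.48 and -4.40, close to the young values of -4.43, -4.76 and -4.50; 1 of its 3 aged arrays was above background (change -0.69 ± 0.59, adjusted p = 0.611). Hmmr and Nusap1, a pair of spindle-assembly proteins, gave -0.21 ± 0.13 and -0.09 ± 0.21 (adjusted p = 0.484 and 0.875).

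All 4 tested genes of cytokinesis, the final separation of the daughter cells, were lower and were above background on all 6 arrays. Prc1, which bundles the microtubules between the parting chromosomes, read -1.83, -1.95 and -1.22 in young and -2.68, -2.72 and -2.95 in aged kidney. Young replicate 3 stood above the other young arrays, which were themselves above all aged ones, and the fall was 2.17-fold (change -1.12 ± 0.20, adjusted p = 0.0273). Kif20a, a motor that carries the passenger complex to the midzone, read -2.51, -2.27 and -2.29 against -2.84, -3.55 and -3.56 (change -0.96 ± 0.20, adjusted p = 0.0479). Kif23, the motor of centralspindlin, read -1.41, -1.45 and -1.55 in young and -2.04, -2.42 and -2.68 in aged samples (change -0.91 ± 0.17, adjusted p = 0.0311). Neither motor's groups overlapped. Ect2, the exchange factor that switches on RhoA at the cleavage furrow, was even in aged kidney (-1.37, -1.33 and -1.38) and higher on every young array (-0.58, -0.18 and -0.64), with a fall of 1.85-fold (change -0.89 ± 0.14, adjusted p = 0.0184). Cep55, which recruits the machinery of final abscission, was above background on 2 young arrays and 1 aged array and was not tested.

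Of the 3 genes of chromosome structure 2 were lower. Top2a, the topoisomerase that untangles sister chromatids, read -3.45, -3.57 and -3.22 in young and -4.14, -4.72 and -4.96 in aged kidney, a fall of 2.29-fold (change -1.19 ± 0.21, adjusted p = 0.0289) with 2 of 3 aged arrays above background. Mki67, whose product coats mitotic chromosomes and is the common marker of dividing cells (Ki-67), read -0.40, -0.38 and -0.28 against -0.94, -1.36 and -1.47. Its young arrays lay within a narrow band above all aged arrays, and the fall was 1.87-fold (change -0.90 ± 0.15, adjusted p = 0.0239). Cdca2, which brings a phosphatase to chromosomes, overlapped, since aged replicate 3 (-4.07) lay among the young values (-4.16, -4.13 and -4.05) while the other aged arrays read -5.00 and -5.28 (change -0.67 ± 0.28, adjusted p = 0.280).

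For 13 of the genes, separate probes measured different stretches of the transcript, 30 probes in all. Tested probe by probe over 30825 probes, 51 of the 62 mitosis and spindle probes entered the fit, of which 17 were called lower, beside 0.607% of all tested probes, and all 51 changes were below 0. The count of 17 was 0, 3 and 1 without young replicates 1, 2 and 3 and 33, 1 and 5 without aged replicates 1, 2 and 3 (limma). In these fits 38 to 42 of the probes had an unadjusted p under 0.05. With the same arrays left out, the share of all tested genes called lower ran from 0.247% to 3.97%. In the fit of all 6 arrays, 17.1% of all tested genes had an unadjusted p under 0.05 (limma). Both shares count genes rather than probes, so they are no direct comparison for the probe counts. Both Mki67 probes gave nearly the same fall, -0.90 ± 0.16 and -0.95 ± 0.17, as did both Cdca8 probes, with falls of 1.87-fold and 2.01-fold, and all 4 were called. The 3 Birc5 probes fell by 1.06, 1.07 and 0.82 on the log2 scale, the dimmest of them without passing (adjusted p = 0.0662, limma over probes). Of the 3 Cdk1 probes, the brightest alone was called (-1.14, adjusted p = 0.0205, limma over probes). The next changed by -0.91 and did not pass (adjusted p = 0.187). The dimmest Cdk1 probe was not tested and overlapped between ages. In Ccnb1 the dimmest and the brightest probe were called (-1.30 and -1.35) and the one between them was not (-0.81, adjusted p = 0.179). In Mad2l1 the order was turned: the brightest probe, which stands for the gene, gave -0.40 and was not called. The dimmest Mad2l1 probe gave -0.86 and was called (adjusted p = 0.0391, limma over probes), with 1 of 3 aged arrays above background. The 17 called probes belonged to 13 genes, 1 of them Mad2l1. The called probes of Bub1, Plk1, Ccnb1 and Mad2l1 passed the detection filter through the young arrays alone. Their folds rest partly on signal at background. At this wider adjustment no probe of Ccna2, Melk, Cdc20, Cdca5, Nuf2, Spc25, Kif20a, Kif23 or Top2a was called, although these genes were. Their smallest adjusted p ran from 0.0507 for Top2a to 0.0862 for Melk (limma over probes). The second probe of Nuf2, like that of Tpx2, was not above background on any array. Labelling from random nonamers on cDNA does not keep strand, so signal of an overlapping transcript on the other strand cannot be told apart from those of the gene.

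**Figure D5:**
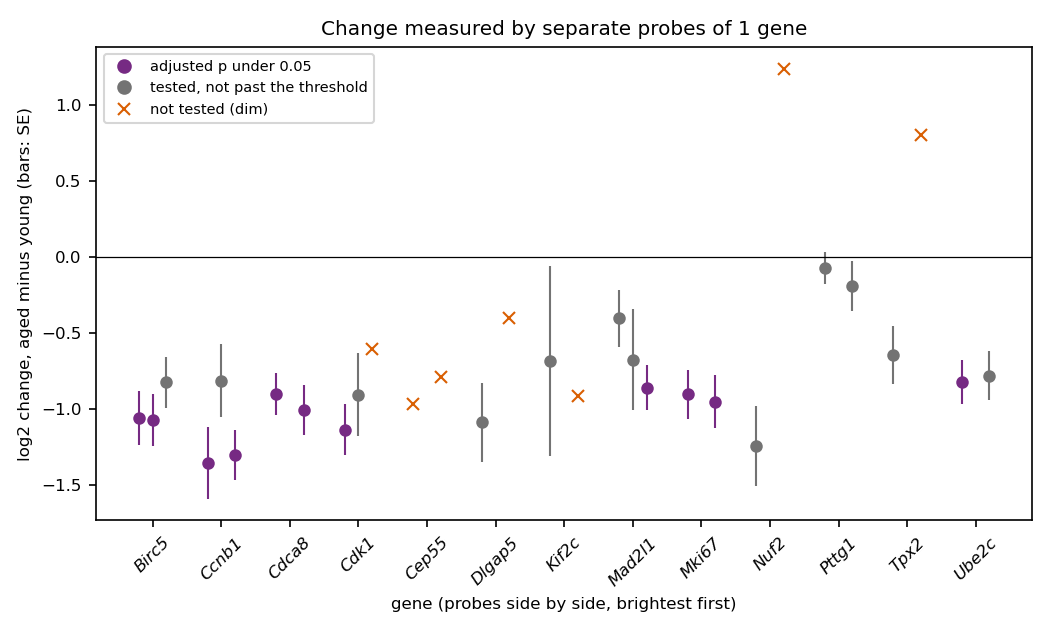
Log2 change (aged minus young, vertical axis, bars for the SE) of each probe for the 13 mitosis and spindle genes with several probes, brightest probe first; purple points passed an adjusted p of 0.05 over all probes, grey points did not, and orange crosses are probes too dim to test. Every tested probe lies below 0.

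Further genes of mitosis that are not among the 45 were listed by function (77 genes, 76 with a probe). Of these 66 were tested, and 9 (13.6%) were lower and 0 higher, beside 1.4% and 1.98% of all tested genes. The median change was -0.36, and 54 of 66 changes were below 0, beside 52.8% of all tested genes. Of the 9, Pbk, Pimreg, Iqgap3, Ckap2l and Depdc1a passed the detection filter through the young arrays alone. Their folds rest partly on signal at background and give no firm order of size. Pbk, a kinase of dividing cells, read -2.30, -2.40 and -2.12 in young and -3.41, -3.84 and -4.73 in aged kidney, a fall of 3.29-fold without overlap (change -1.72 ± 0.30, adjusted p = 0.0271, limma). Only 2 of its 3 aged arrays were well above background. Pimreg, a mitotic regulator, changed by -1.60 ± 0.27 (adjusted p = 0.0251) and Cenpm, of the inner kinetochore, by -1.14 ± 0.19 (adjusted p = 0.0239). Depdc1a was not well above background on any aged array and was at least 1.15-fold lower, taken against the lowest signal well above background (adjusted p = 0.0161). All 9 lay in the dimmest of the 3 groups by signal, where 2.91% of all genes were called lower. All 9 also had aged arrays below all young arrays, beside 11.5% of all tested genes. The count of calls was 0, 4 and 1 without young replicates 1, 2 and 3 and 17, 0 and 1 without aged replicates 1, 2 and 3 (limma). In the same fits the share of all tested genes called lower ran from 0.247% to 3.97%. With an array left out, 21 to 34 of the 66 had an unadjusted p under 0.05. With all arrays 28 did, beside 17.1% of all tested genes (limma).

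The anaphase-promoting complex is the ubiquitin ligase that Cdc20 and Ube2c serve. Of 17 genes of this complex and its partners, 0 were called and 0 had an unadjusted p under 0.05 (limma), with a median change of -0.09. Fbxo5, an inhibitor of that complex, had the largest fall among them and overlapped between ages (change -0.37 ± 0.17, adjusted p = 0.333). Among 23 tested transcription regulators of the cell cycle, 2 were lower, beside 1.4% of all tested genes. That count was 5 without aged replicate 1 and 0 without any other single array (limma). With an array left out, 4 to 8 of the regulators had an unadjusted p under 0.05. With all arrays 6 did, beside 17.1% of all tested genes (limma). Their median change was -0.04, and 14 of the 23 were below 0, beside 52.8% of all tested genes. E2f1, an activator of genes for DNA replication, read -0.68, -0.66 and -0.75 in young and -1.20, -1.41 and -1.43 in aged kidney (change -0.65 ± 0.11, adjusted p = 0.0243), and E2f3, its relative, changed by -0.60 ± 0.11 (adjusted p = 0.0349). E2f8, a repressor of the same family, had groups that did not overlap and did not pass (change -0.83 ± 0.20, adjusted p = 0.0673). Foxm1, which activates late cell cycle genes with the MuvB core, read -2.45, -2.53 and -2.34 against -2.88, -3.52 and -3.06, also without overlap (change -0.71 ± 0.17, adjusted p = 0.0729).

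Cell type markers were read on the same arrays. All 10 proximal tubule markers were above background on all 6 arrays and 0 were called (limma; 0 had an unadjusted p under 0.05), with a median change of -0.05, so markers of the kidney's most abundant cell type were present in every sample. Of 6 stromal markers, the collagens Col1a1 and Col3a1 were called lower, beside 1.4% of all tested genes (change -0.85 ± 0.12 and -0.96 ± 0.15, adjusted p = 0.0138 and 0.0182, limma). The other 4 had changes between -0.03 and 0.12, the list's median change was 0.00066, and its median level ran from 2.49 to 2.75 in young and from 1.77 to 2.06 in aged kidney. Lymphocyte and plasma cell markers moved the other way, with 3 of 7 tested markers called higher, beside 1.98% of all tested genes. Their median levels were -2.58 to -2.21 in young and -1.66 to -1.29 in aged kidney. For macrophage markers 0 of 5 were called, with a median change of 0.57, and 4 had an unadjusted p under 0.05 (limma), beside 17.1% of all tested genes. Of the nephron progenitor markers, Six2 was above background on 0 arrays, and Cited1, Eya1 and Osr1 were above it on all 6 and not called. Of the germ cell markers, Dazl and Sycp1 were above background on 0 arrays, Ddx4 on 2, Prm1 on 1 and Sycp3 on all 6, and Sycp3 was not called. All 5 tested erythroid precursor markers were above background on all 6 arrays and 0 were called (limma). An unadjusted p under 0.05 was found for 1 of the 5, beside 17.1% of all tested genes. The part of these cell types in the falls of the mitosis and spindle genes was not tested.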

How the data were processed

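Whole-kidney RNA of 3 young and 3 aged mouse samples was measured on Agilent arrays of design 028005. Per the file headers, Feature Extraction 11.5.1.1 (protocol GE1_1105_Oct12) gave the deposited processed signal intensity, background-subtracted and detrended within each array. The authors' value table is log2 signal minus each array's 75th percentile: recomputed from the intensities, 99.8% of its values agree within 0.01, and it served as an alternative.

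Here control spots and spots flagged as outliers were dropped, log2 signal was averaged per probe, and each array's 75th percentile over all non-control spots was subtracted. A probe was tested where each array of either age showed it well above background. A gene took its probe with the highest mean. Of the 55681 probes, 26762 carried 1 symbol, through RefSeq (GRCm38.p6), and 0 several; the array grid uses another build. Ages were compared with limma 3.58.1 (R 4.3.3; 2-sided), Benjamini-Hochberg adjustment over 14548 genes and a threshold of 0.05. No probe was saturated, and the 75th percentile of signal was 2702 to 4498. The number of arrays limits the precision.

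The members, lists and named-gene rule were chosen with earlier results of these data known. That rule gives values per array for every called gene and up to 2 further genes a role with the smallest p, and up to 4 genes a list; others were chosen after their values were seen. Same-numbered samples shared a slide column, and their deviations from the age means correlated at 0.06, -0.09 and 0.10, so the numbers were not taken to pair samples. The fit was tested on simulated data. Alternatives are given in the closing section.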

Additional observations from a re-analysis of the deposited data

How the results depend on the processing

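Of 491 genes past the threshold, 203 were lower and 288 higher. Median centring gave 800 (367 lower, 433 higher), no filter 16, the replicate block 266, a 2-fold minimum 203, and leaving out each array 141 to 922. For the mitosis and spindle genes, with 21 called, no filter gave 0 (31 with an unadjusted p under 0.05, limma), the replicate block 7, a 2-fold minimum 10, and leaving out each array 1 to 27; the other settings of filter, scaling, background, probe choice and variance gave 15 to 26. The median change of -0.90 was -0.68 with normexp and -1.05 to -0.84 with an array left out. Normexp ended the calls of Ccnb1, Ube2c, Cdca5, Nuf2, Spc25 and Kif20a. The mean of probes ended those of Melk, Cdc20, Nuf2 and Kif20a, where Nuf2 gave -0.0023 because its second probe, not above background on any array, entered the mean; median centring ended that of Spc25 and eBayes with trend and robust that of Cdca5. The probe count of 17 became 27 with median centring, 0 with no filter, 29 with array weights, 5 with the replicate block and 0 to 33 with an array left out. For the other mitosis genes, 9 became 17 with median centring, 0 with no filter, 3 with the replicate block and 0 to 17 with an array left out. For the transcription regulators, 2 became 1 with median centring, 0 with no filter, 4 with array weights, 0 with the replicate block and 0 to 5 with an array left out. The anaphase-promoting complex genes gave 0 throughout. With no filter 20284 genes were tested instead of 14548, and why the calls were lost was not tested. Some uncalled genes gained a call in other settings, among them Ckap2 in 5 of 16. Dlgap5, Aurka and Bub1b gained one in 3 of 16 each and Cenpa in 3 of 17. No called gene changed sign. Uncalled genes that turned above 0 were Cenpe (with normexp, array weights, and without young replicates 1 and 3 or aged replicate 3, up to 0.27), Nusap1 (array weights, without young or aged replicate 3, up to 0.15), Kif2c (without aged replicate 2, 0.13) and Tpx2 (mean of probes, 0.08). The replicate block is also the slide column, and the numbers were not taken to pair the samples. Signal near background limits the folds of dim genes, most of all on aged replicate 3.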
